A study of Mus musculus with 8 samples.

Results

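The Wnt ligands, receptors and secreted inhibitors described here are 53 genes of the 16504 with a probe of their own on the array, each read by 1 of the 22393 probes. They were taken by gene symbol: every measured Wnt, Fzd (frizzled), Sfrp (secreted frizzled-related) and Dkk (dickkopf) gene, together with named inhibitors, co-receptors and intracellular components. They divide into 19 ligands, the acyltransferase Porcn, 12 inhibitors, 12 receptors and co-receptors, and 9 intracellular components. Of the symbols named, Tcf7 was not analysed here.

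Wnt proteins are secreted, lipid-modified signals that bind frizzled receptors and the co-receptors Lrp5 and Lrp6. Binding stabilises β-catenin, which then acts in the nucleus with TCF and LEF factors. Sfrp proteins and Wif1 bind the ligands outside the cell, whereas some of the Dkk proteins bind the co-receptors. In cultured preadipocytes Wnt signalling holds back fat cell formation, and white fat secretes Sfrp5.

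RNA came from epididymal adipose tissue of polygenic obese mice whose diet held conjugated linoleic acid (CLA), or in the controls its parent fatty acid, linoleic acid (LA). Tissue was taken at day 5 or day 14 of the trial, and each of the 8 arrays set a CLA pool of 4 or 5 mice directly against an LA pool, with 4 arrays per day. On both days the CLA pool was labelled with Cy5 on arrays 1 and 2, and with Cy3 on arrays 3 and 4. The sources used here name no line, sex, age or dose, and do not say whether arrays share a pool. The p-values below therefore cover the spread from array to array alone, which may be technical.

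Values are log2 ratios read as CLA over LA, a likely direction that no source states. The deposited values were inferred to be log10 ratios and were multiplied by 3.32. Should they have been deposited as log2, all log2 values and their errors here shrink by that factor, and the folds of Sfrp5, Apcdd1 and Fzd4 at day 14 become 1.53, 1.45 and 1.24. Arrays 3 and 4 were used with the sign they have in the deposited table. With their sign turned, 489 probes passed a mean of 2 log2 units on both days, 473 of them without a single gene symbol, against 1 probe as deposited, and the means of the 2 days correlated across genes with r 0.75 against 0.36. Probe pairs of 1030 genes correlated at day 14 with r 0.31 as deposited and 0.06 with the arrays turned (across genes, which are not independent replicates). At day 5 these values lay closer together, with r 0.23 as deposited and 0.12 with the arrays turned. A ratio carries no level, so levels of different genes, and the tissue label itself, could not be examined. Day 5 arrays 3 and 4 had the largest residual spread of the 8 (0.56 and 0.45 log2 units, against 0.20 to 0.29 on the other 6). Epididymis and testis markers (12 measured) had a median of 1.42 and 0.84 on day 5 arrays 1 and 3, and between −0.40 and 0.38 on the other 6 arrays. The genes behind it differed: the epididymal genes Lcn5 and Adam7 stood at 2.83 and 2.63 on array 1 but at −2.06 and −1.59 on array 3, while the sperm genes Prm1 and Tnp1 stood at −0.21 and 0.04 on array 1 and at 6.78 and 6.51 on array 3 (genes chosen after their values were seen). On day 14 arrays 1 to 4, Lcn5 read −0.16, −2.45, −5.03 and −0.09, and Prm1 read −1.08, −1.39, 1.52 and 1.66. The 12 fitted day 14 ratios had a median of 0.03, 7 above and 5 below 0, with 0 called (limma). Their part in the day 14 ratios of other genes was not tested.

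At day 14, 3 of the 53 genes fell with CLA and 0 rose. Sfrp5 and Apcdd1, both inhibitors of Wnt signalling, were lower by 4.10-fold and 3.46-fold, and Fzd4, a frizzled receptor, by 2.02-fold. The other 50, which include all 19 ligands, Lrp5, Lrp6 and β-catenin, did not pass the test (limma on the 4 day 14 arrays with a dye term, Benjamini-Hochberg over 16504 genes). In that fit 1.58% of all genes were called, 1.04% lower and 0.533% higher. An unadjusted p under 0.05 was reached by 9 members, 3 higher and 6 lower, against 19.1% of all genes (7.46% higher and 11.7% lower). The median of the 53 log2 ratios was −0.02, against 0.00 over all genes.

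Sfrp5 encodes a secreted protein that carries a frizzled-like cysteine-rich domain and binds Wnt ligands. Its log2 ratio on day 14 arrays 1 to 4 was −2.04, −2.62, −2.18 and −1.30. All 4 lay far below 0, the least so on array 4, and arrays of the 2 dye orientations overlapped. Sfrp5 fell by 2.04 ± 0.17 (SE, n = 4 arrays; adjusted p = 0.024), and only 3 of the 16504 genes had a lower fitted ratio. Its promoter is shown here beside that of Fzd4, which fell on the same arrays, and one of the 2 windows of Wnt11, the one that holds the TCF and LEF core motif. Each is 250 bases before and 50 after the start of transcription, 5′ to 3′ on the gene's strand, from RefSeq (GRCm38.p6). Capitals mark the motif CTTTGA on either strand. No window was available for Apcdd1. Wnt11 was not called, and is shown because it had an unadjusted p under 0.05 at day 14 (limma) and holds the motif.
Sfrp5 (chr19:42202203-42202502, minus strand): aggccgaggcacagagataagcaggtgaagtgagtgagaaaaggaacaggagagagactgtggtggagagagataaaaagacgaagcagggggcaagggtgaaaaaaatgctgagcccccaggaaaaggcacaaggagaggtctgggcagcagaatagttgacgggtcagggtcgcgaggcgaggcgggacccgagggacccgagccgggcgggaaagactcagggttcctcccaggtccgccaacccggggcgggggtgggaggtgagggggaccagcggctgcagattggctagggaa
Fzd4 (chr7:89404116-89404415, plus strand): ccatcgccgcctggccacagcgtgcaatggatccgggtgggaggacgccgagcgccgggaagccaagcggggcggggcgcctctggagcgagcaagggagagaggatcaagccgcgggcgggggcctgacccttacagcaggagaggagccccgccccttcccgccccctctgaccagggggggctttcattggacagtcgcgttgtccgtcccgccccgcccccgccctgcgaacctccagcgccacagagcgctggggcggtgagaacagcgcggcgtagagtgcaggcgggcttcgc
Wnt11 (chr7:98834862-98835161, plus strand): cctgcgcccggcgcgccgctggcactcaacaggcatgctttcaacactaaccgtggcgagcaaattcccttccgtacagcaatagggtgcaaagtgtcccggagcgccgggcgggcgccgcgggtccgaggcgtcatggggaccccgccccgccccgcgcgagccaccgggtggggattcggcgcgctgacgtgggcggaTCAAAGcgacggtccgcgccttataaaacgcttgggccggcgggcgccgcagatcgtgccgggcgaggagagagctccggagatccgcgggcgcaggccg

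The windows of Sfrp5 and Fzd4 did not hold these 6 letters, and the Wnt11 window shown held them once, on the opposite strand, beginning 50 bases before the start; the second Wnt11 window held 0. Among members with a window in the table the motif was found in 6 of 36 genes (16.7%), against 18.2% of 27025 genes. G and C made up 61.3% of the Sfrp5 window, 72.7% of the Fzd4 window and 71.3% of the Wnt11 window shown, against a median of 52.7% over 32851 windows.

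Apcdd1 encodes a membrane glycoprotein that binds Wnt and its co-receptor and blocks the signal. Its log2 ratio was −1.34, −1.55, −2.56 and −1.72 on the 4 day 14 arrays. All 4 were below −1, with array 3 the lowest, and both Cy5 arrays lay above both Cy3 arrays (dye term 0.35, adjusted p = 0.12, limma). Apcdd1 fell by 1.79 ± 0.15 (SE, n = 4; adjusted p = 0.022).

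Fzd4 encodes a frizzled that binds Wnt ligands and also Norrin, a ligand of blood vessel growth. On the 4 arrays it stood at −0.52, −0.39, −1.76 and −1.38. All were below 0, but arrays 1 and 2, with CLA in Cy5, lay nearer to 0 than arrays 3 and 4, and the orientations did not overlap. The fitted fall was 1.01 ± 0.09 (SE, n = 4; adjusted p = 0.025), with a dye term of 0.56 (limma, adjusted p = 0.014).

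**Figure D1:**
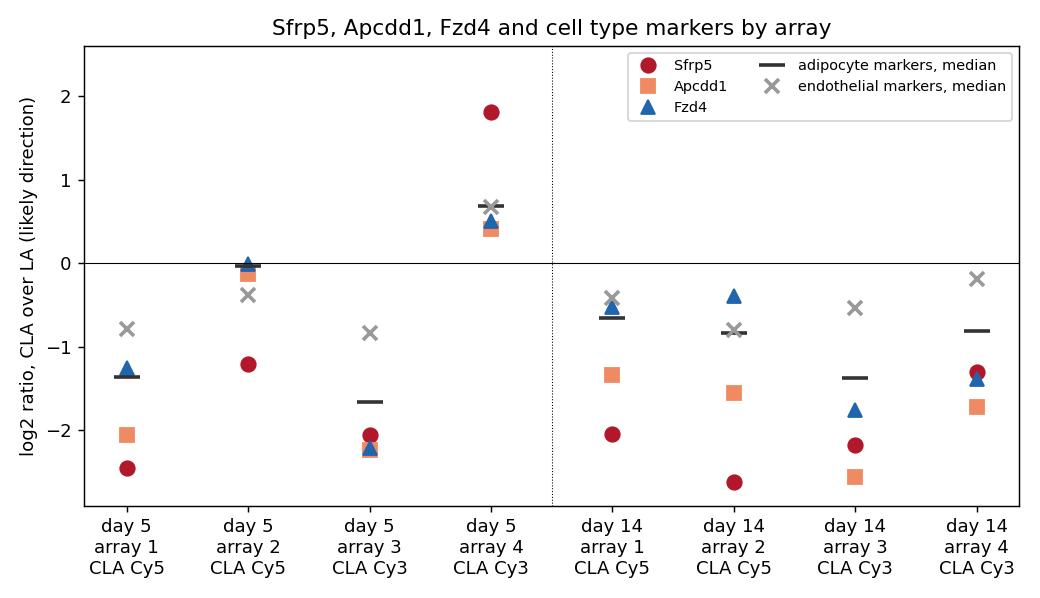
Log2 ratio (vertical axis) of Sfrp5, Apcdd1 and Fzd4 on each of the 8 arrays (horizontal axis), with the median of 11 adipocyte markers (bars) and of 12 endothelial markers (crosses) on the same array. All 3 genes lie below 0 on the 4 day 14 arrays, and all 3 lie above 0 on day 5 array 4, where both marker medians do too.

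These calls rest on few arrays and on the dye term in the fit. Without that term, on the same day 14 arrays, the adjusted p was 0.26 for Sfrp5, 0.26 for Apcdd1 and 0.54 for Fzd4 (limma). In a fit of all 8 arrays with 1 shared dye term the adjusted p was 0.34 for Sfrp5, 0.30 for Apcdd1 and 0.48 for Fzd4 (limma), and 0 genes were called, with 9.77% at an unadjusted p under 0.05; with the array number as a block the adjusted p was 0.36, 0.35 and 0.46. Without day 14 array 1 it was 0.071, 0.072 and 0.087, and without array 2 it was 0.10, 0.11 and 0.11, so 0 members were called, whereas without array 3 or without array 4 the 3 stayed called. With arrays 3 and 4 turned the log2 ratio was −0.30 for Sfrp5 (adjusted p = 0.24), 0.35 for Apcdd1 (0.12) and 0.56 for Fzd4 (0.014). Quantile scaling gave larger falls, −3.01 for Apcdd1 and −2.25 for Fzd4.

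The medians of adipocyte and of endothelial markers lay below 0 on the same arrays. The marker counts given here are of fitted day 14 ratios, with the sign as deposited. In the fit of all 8 arrays 0 genes were called (limma), so none of the marker calls held there. Of 11 adipocyte markers, 9 lay below 0 at day 14 and 5 were called lower (limma, fit of the day 14 arrays). Their median on arrays 1 to 4 was −0.66, −0.83, −1.37 and −0.81. All 12 endothelial markers lay below 0 and 3 were called lower, with medians of −0.42, −0.80, −0.54 and −0.18. Single markers did not all keep to that side on each array. Pecam1 read −0.87, −0.96, 0.12 and 0.49, and the adipocyte marker Fabp4 read 0.83, 0.92, −0.37 and −0.66. Tie1 and the adipocyte marker Adipoq stayed below 0 on each day 14 array. With arrays 3 and 4 turned, the fitted ratio was −0.27 for Tie1 and 0.72, of opposite sign, for Adipoq. All 12 mesothelial markers lay below 0, with 1 called lower and medians from −0.76 to −0.13, and all 10 macrophage markers lay above 0 with 0 called (medians 1.25, 0.76, 0.66 and 0.00). Preadipocyte and fibroblast markers were split, 6 of 11 above 0 with 1 called higher, as were those of T and B cells, 7 of 11 above 0 with 0 called. The part of cell makeup in the falls of Sfrp5, Apcdd1 and Fzd4 was not tested, and in tissue RNA fewer cells of a type and less RNA per cell cannot be told apart.

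The other 10 inhibitors did not pass the test at day 14. Dkk2, which binds Lrp5 and Lrp6, had the lowest ratio of them, −0.28, −0.24, −1.20 and −0.47 on the 4 arrays, with a mean of −0.55 ± 0.45 (SD, n = 4; fit −0.55 ± 0.13 SE, adjusted p = 0.11). It was below 0 throughout, with array 3 set apart. Sfrp4, another secreted frizzled-related protein, stood highest at 0.75, 0.50, 0.19 and −0.09 (fit 0.34 ± 0.09 SE, adjusted p = 0.13). Here the Cy5 arrays lay above the Cy3 arrays, and array 4 was slightly below 0. Frzb, Sfrp2, Dkk1, Dkk3 and Dkk4 lay between 0.03 and 0.23, and Dkkl1, a dickkopf relative best known from sperm, Wif1 and Sfrp1 between −0.29 and −0.02. Among the 5 frizzled-related genes the fitted ratios therefore ran from −2.04 for Sfrp5 to 0.34 for Sfrp4; whether members differ from each other was not tested.

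Of the 10 frizzled genes Fzd4 was the only one called (limma, day 14 arrays); the other 9 lay between −0.07 and 0.06, and none passed. Their standard errors ran from 0.07 to 0.22. Of the 10 frizzled genes, 7 were divided by dye orientation, against 46.2% of all genes. For those a fitted ratio near 0 averages arrays of opposite sign. The dye term was called for 6 of the 10, against 31.8% of all genes (limma). Of the co-receptors, Lrp5 stood at −0.10 ± 0.08 (SE, n = 4; adjusted p = 0.51). Lrp6 read −0.16, −0.05, 0.61 and 1.02, below 0 on the Cy5 arrays and above 0 on the Cy3 arrays. Its fitted ratio of 0.36 ± 0.09 was not called (limma, adjusted p = 0.13), and its dye term was −0.46.

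None of the 19 ligands was called at day 14 (limma), and only Wnt11 had an unadjusted p under 0.05. Wnt11, a ligand of the β-catenin-independent branch, read −0.12, −0.25, −0.39 and −0.27. All 4 arrays were below 0 within a narrow range, and the fit was −0.26 ± 0.07 (SE, n = 4; adjusted p = 0.15). Wnt10b, the ligand best known for restraining fat cell formation in culture, read −0.35, −0.35, 0.52 and 0.45, below 0 with CLA in Cy5 and above 0 with CLA in Cy3. Its fitted ratio was 0.07 ± 0.07, with a 95% interval from −0.10 to 0.24. Wnt5a, a binding partner of Sfrp5, showed the same split with −0.88, −0.59, 0.53 and 0.24 and a fit of −0.18 ± 0.09 (limma, adjusted p = 0.36). The ligands spanned −0.26 to 0.18 with a median of −0.01, 9 above and 10 below 0. Porcn, which attaches the lipid to Wnt proteins, was at 0.09 ± 0.07.

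Of the 9 intracellular components, 0 were called at day 14 (limma) and 2 had an unadjusted p under 0.05. Dvl3, an adaptor that relays the signal from frizzled, read 0.16, 0.09, 0.36 and 0.29, and Ctnnb1, which encodes β-catenin, read −0.26, −0.19, −0.36 and −0.07. Each kept to the same side of 0 on all 4 arrays. The fits were 0.23 ± 0.07 and −0.22 ± 0.08 (SE, n = 4; adjusted p = 0.17 and 0.23). Axin2, a direct target often used to read out β-catenin signalling, read −0.36, −0.12, 0.36 and 0.14. It lay below 0 with CLA in Cy5 and above 0 with CLA in Cy3. Its fit of 0.00 ± 0.08, with a 95% interval from −0.20 to 0.21, averages these opposite readings. Lef1, both an effector and a target, was divided by dye the other way, at 0.16, 0.20, −0.45 and −0.38 (fit −0.12 ± 0.07). Tcf7l2, a TCF factor and a diabetes risk gene in humans, was at 0.26 ± 0.23.

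**Figure D2:**
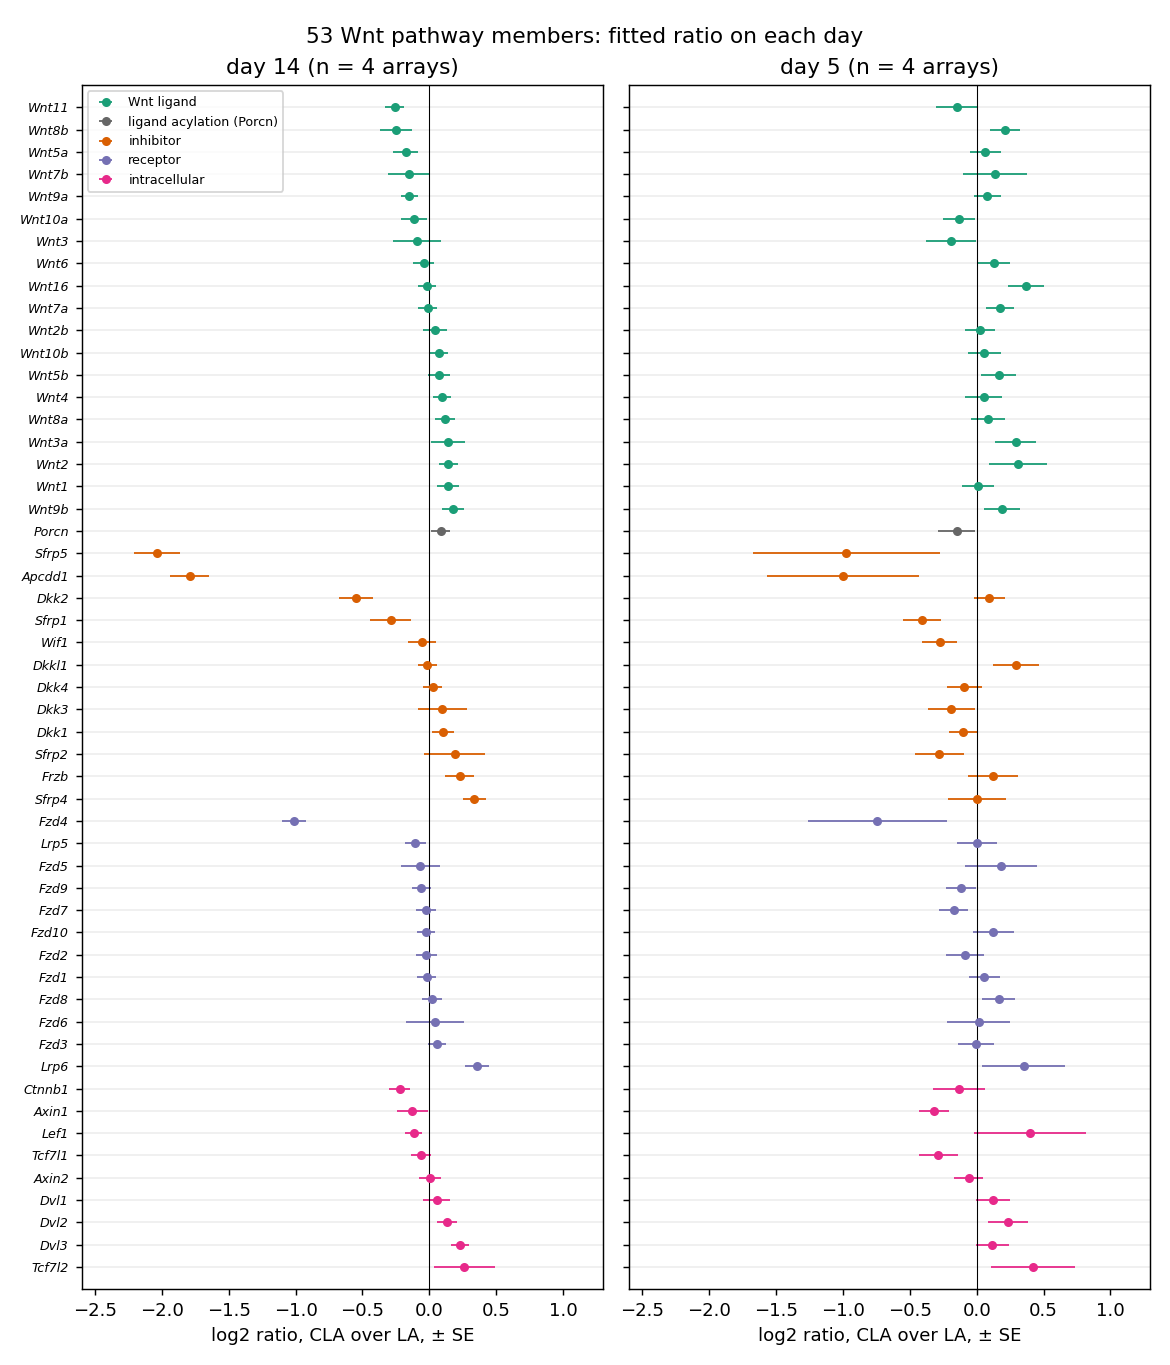
Fitted log2 ratio of each of the 53 genes (horizontal axis) with its standard error (bars), at day 14 on the left and day 5 on the right, 4 arrays each, coloured by role. At day 14 Sfrp5, Apcdd1 and Fzd4 stand below −1 and the rest lie between −0.55 and 0.36, while the day 5 errors of these 3 genes run from 0.52 to 0.70.

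For many members the sign of the ratio went with the dye orientation. Arrays 1 and 2 lay on one side of 0 and arrays 3 and 4 on the other for 27 of the 53 genes at day 14, where 46.2% of all genes did so. The dye term was called for 20 members (37.7%), against 31.8% of all genes. It was larger in size than the diet ratio for 37 members, a count that was not made over all genes. Its largest values belonged to Tcf7l2 (−0.96), which read −1.38, −0.02, 1.44 and 1.02, and Fzd5 (−0.96), which read −1.43, −0.63, 0.77 and 1.03. Axin1, the scaffold of the complex that degrades β-catenin, read 0.80, 0.37, −1.08 and −0.60 with a dye term of 0.71. In contrast, 10 members kept all 4 arrays on the same side, 7 below 0 and 3 above, against 13.4% of all genes (7.06% below and 6.3% above). These were Sfrp5, Apcdd1, Fzd4, Dkk2, Ctnnb1, Wnt11 and Wnt9a below 0, and Porcn, Dvl3 and Wnt1 above. At day 5 the dyes divided 19 members, where they divided 32.8% of all genes. Then 3 members kept to the same side, Tcf7l1 below 0 and Wnt3a and Wnt7a above, against 5.48% of all genes (3.24% below and 2.25% above). None of the 53 lay on the same side on all 8 arrays, where 1.09% of all genes did.

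**Figure D3:**
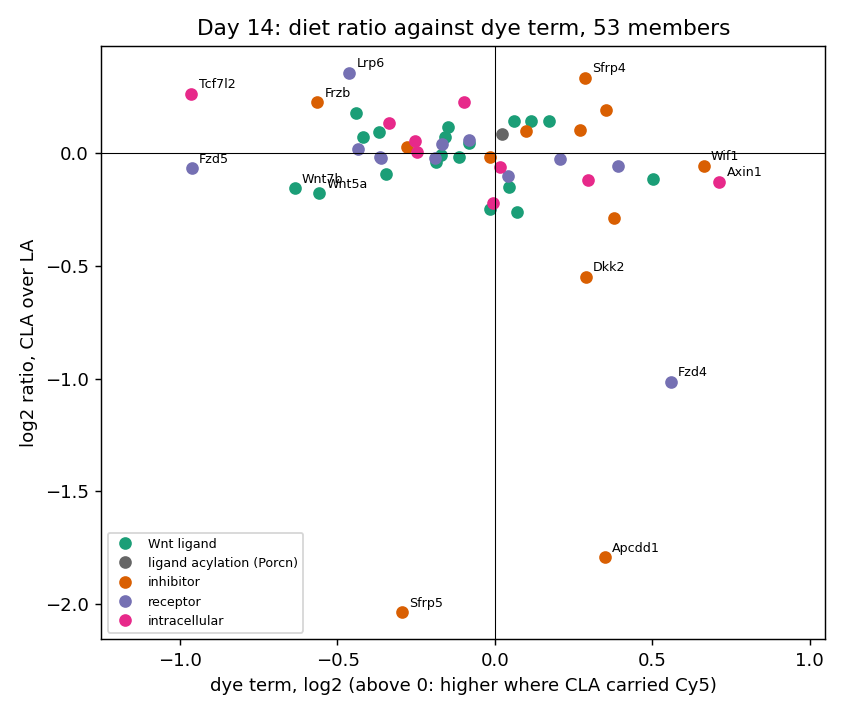
Day 14 log2 ratio of CLA over LA (vertical axis) against the dye term (horizontal axis, log2, positive where the gene read higher with CLA in Cy5) for the 53 genes, coloured by role. Sfrp5 and Apcdd1 lie lowest, Fzd4 lies low at a dye term of 0.56, and Tcf7l2, Fzd5 and Axin1 lie farthest to the sides with diet ratios from −0.13 to 0.26.

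At day 5, 0 of the 53 genes and 0% of all genes were called (limma on the 4 day 5 arrays). An unadjusted p under 0.05 was reached by 2 members, Sfrp1 and Axin1, and by 4.63% of all genes; both were lower, as were 3.48% of all genes. Sfrp5 read −2.45, −1.21, −2.05 and 1.81, so 3 arrays were below −1 and array 4 was well above 0. The mean was −0.98 ± 1.93 (SD, n = 4; adjusted p = 0.81). Without array 4 the fit gave −1.94 with an adjusted p of 0.038, in a fit that called 1089 genes and in which 1 array stood alone in its orientation.

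Array 4 was also the highest for the other genes that fell at day 14. Apcdd1 read −2.05, −0.13, −2.23 and 0.41 at day 5, and Fzd4 read −1.26, −0.01, −2.21 and 0.50. Both were lowest on array 3, next lowest on array 1, near 0 on array 2 and above 0 on array 4, whereas Sfrp5 was lowest on array 1 and below −1 on array 2. The adipocyte marker median had the order of Apcdd1 and Fzd4, with −1.36, −0.04, −1.66 and 0.68, and the endothelial median read −0.79, −0.39, −0.83 and 0.67. Arrays 1 and 3 were also those with the high epididymis or testis markers given above. The part of these in the day 5 ratios was not tested.

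Among the other inhibitors at day 5, Sfrp1 read 0.18, −0.38, −0.74 and −0.69, below 0 on 3 arrays (fit −0.41 ± 0.14 SE, n = 4; adjusted p = 0.81). Axin1 read 0.11, 0.41, −0.92 and −0.88, again divided by dye, with a fit of −0.32 ± 0.11 (limma, adjusted p = 0.81). Wnt16 had the highest ligand ratio, 0.37 ± 0.14, and Wnt3 the lowest, −0.19 ± 0.19. Of the 19 ligands, 16 lay above 0, with a median of 0.08 and none called. Over all genes, 8206 of 16504 lay above 0, with a median of −0.002. Whether the ligands differ from all genes was not tested. Lef1 read 1.20, 0.30, 1.15 and −1.06, a spread in which array 4 opposed the others (0.40 ± 0.42, SE). Axin2 was flat on every day 5 array, between −0.20 and 0.02. The 12 inhibitors had a median of −0.14 and the 12 receptors 0.01.

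**Figure D4:**
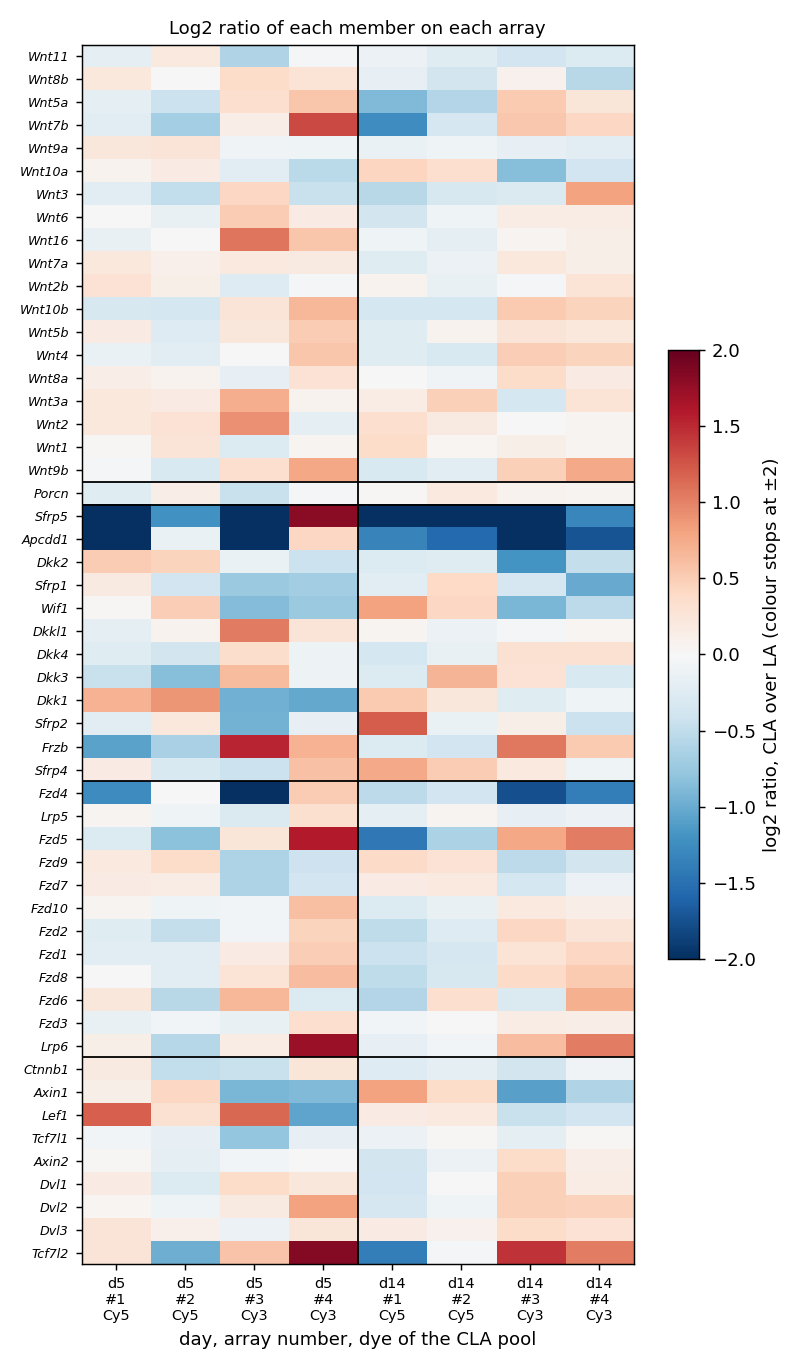
Log2 ratio of each member (rows, grouped by role) on each array (columns, with day, array number and the dye of the CLA pool), red above 0 and blue below, with the colour scale ending at 2 in size. Sfrp5, Apcdd1 and Fzd4 are blue on all 4 day 14 arrays, while rows such as Tcf7l2, Fzd5 and Axin1 change colour between the Cy5 and Cy3 arrays of day 14.

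The change of the ratio from day 5 to day 14 was tested in a fit of all 8 arrays. It called 0 of the 53 genes and 0% of all genes (limma), and 2 members, both with the lower ratio at day 14, and 4.24% of all genes (1.44% lower and 2.81% higher) had an unadjusted p under 0.05. Dkk2 read 0.51, 0.44, −0.13 and −0.43 at day 5, divided by dye, and was below 0 on every day 14 array. Its difference, day 14 minus day 5, was −0.64 ± 0.18 (SE; adjusted p = 0.89). Wnt8b read 0.21, 0.00, 0.37 and 0.28 at day 5, then −0.16, −0.36, 0.08 and −0.55, a difference of −0.46 ± 0.16 with the same adjusted p of 0.89 (limma). For Sfrp5 the difference was −1.06 ± 0.79, for Apcdd1 −0.79 ± 0.64 and for Fzd4 −0.27 ± 0.58. For these 3 the standard error of the difference was 0.58 or more.

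Beyond these members, 115 further genes of the pathway were listed, some of them in 2 lists, and 101 were measured. At day 14, 1 of them rose, 1 fell, and their median was −0.04 (limma, fit of the day 14 arrays). The 2 called genes are 1.98% of those measured, close to the 1.58% of all genes, so the count is no result about the pathway. Fosl1, an AP-1 transcription factor gene cited as a β-catenin target, read 1.27, 0.78, 0.98 and 0.86 and rose by 0.97 ± 0.10 (SE, n = 4; adjusted p = 0.030). It was above 0 on all 8 arrays, at 0.52, 1.53, 0.54 and 0.40 on day 5. Of the 22 measured genes of that target list it was the only one called, with 13 above and 9 below 0; Plaur followed at 0.36, and Ccn5 (−0.27) and Nkd1 (−0.20) stood lowest.

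Gpc4, a cell-surface glypican that is also shed by fat cells, read −0.55, −0.31, −0.78 and −1.03 and fell by 0.67 ± 0.08 (SE, n = 4; adjusted p = 0.043). It belonged to the 18 measured genes for Wnt secretion, co-receptors and co-ligands, of which 7 lay above and 11 below 0. Tspan12, a partner of Fzd4 in Norrin signalling, was next lowest, at −0.52 ± 0.15 (adjusted p = 0.15), and Lgr5 (0.16) and Lgr6 (0.14) were highest. In the fit of all 8 arrays the adjusted p was 0.22 for Fosl1 and 0.40 for Gpc4 (limma). With arrays 3 and 4 turned the ratio was 0.05 for Fosl1 (adjusted p = 0.70) and 0.23, of opposite sign, for Gpc4 (0.085), so both calls and the order within these lists hold for the sign as deposited.

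None of the other 5 lists held a called gene at day 14 (limma). Of the 20 cytosolic regulators, 13 lay below 0, with Ctnnbip1, an inhibitor of β-catenin binding to TCF, at −0.54 and Ppp2r5a at −0.47, and Cxxc4 (0.16) and Apc2 (0.16) highest. Of 16 nuclear partners 10 lay below 0, from Sox17 (−0.22) and Tle1 (−0.21) to Bcl9l (0.25) and Sox9 (0.22). The 15 genes of the planar polarity and calcium branch ran from Rac1 (−0.22) and Nfatc1 (−0.10) to Daam1 (0.20) and Celsr3 (0.15). Of 7 other inhibitors and membrane brakes, Sostdc1 (−0.27) and Cer1 (−0.19) were lowest and Notum (0.08) and Sost (0.07) highest. Among 8 adipogenic regulators, Zfp423 stood at −0.59 and Pparg, the master regulator of fat cell formation, at −0.59 (adjusted p = 0.055 and 0.057, n = 4, limma). Cebpb (0.31) and Klf15 (0.03) were highest.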

How the data were processed

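Gene expression was measured on 8 arrays of 2 channels. The deposited table holds 1 value per probe and array, taken as a log10 ratio (inferred, not stated). What background treatment, filters or normalization the authors used is not stated in these sources; the column medians were −0.00334, −0.00103, −0.0176 and 0.00256 at day 5 and −0.00489, −0.0022, 0.0109 and 0.00423 at day 14, so whether arrays were centred stays unknown. No depth or intensity is given, so the number of arrays limits the precision. Of the probes, 18218 had 1 gene symbol, 16 several and 4159 none; a gene's value was the mean of its probes with 1 symbol (16504 genes). All 53 member symbols matched the mouse gene table.

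Models were run in limma 3.58.1 (R 4.3.3) on log2 ratios, per day with a mean and a dye term (2 residual degrees of freedom), and for the change between days over all 8 arrays; calls needed a Benjamini-Hochberg adjusted p under 0.05 over all genes. The fit per day was chosen, and the members and lists were written, with earlier results of these data known, among them that a fit of all arrays had called no gene. Members called or with an unadjusted p under 0.05 are given array by array; of the rest, and of the further pathway lists, the extremes are named. Wnt10b, Wnt5a, Axin2, Lef1, Tcf7l2, Porcn, Lrp5 and Fzd5 were given values for their known roles or dye terms, after values were seen. The fits per day were also run on data simulated from the same model with independent arrays, so shared pools or a wrong sign were not tested.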

Additional observations from a re-analysis of the deposited data

Results flagged for a closer look

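Of 106 sets of 4 arrays (53 genes on each day), 1 held an array far from the other 3. The cut-off used gives about 1 in 20 for 4 independent normal values. Arrays divided by dye are not such values, so that rate may not apply here. Tcf7l1, a mostly repressive TCF factor, read −0.77 on day 5 array 3, against −0.17 to −0.05 on the other day 5 arrays. That array also had the widest spread over all genes, an SD of 0.93 log2 units.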

How the results depend on the processing

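At day 14 the day's own arrays called 260 genes and 3 members. Other settings gave 0 genes and 0 members in the fit of all 8 arrays, 1 and 0 without the dye term, 584 and 3 with array weights over all 8 arrays (Fzd4 lost, adjusted p = 0.051, and Dkk2 gained at −0.49, 0.046), 169 and 3 with quantile scaling, 96 probes and 3 members at probe level, and 5248 and 20 with arrays 3 and 4 turned. Leaving out each array gave 1 to 156 genes and 0 to 3 members at day 14. At day 5, where 0 were called, it gave 0 to 1089 genes and 0 to 1 member, the upper values without array 4; such a fit leaves 1 array in an orientation, assumed to vary like the others. Median centring and robust moderation changed no call of a member. Reading the values as log2 divides all of them by the same factor, so it could not change a call. No setting called a member for the change between days.

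With the array number as a replicate block over all 8 arrays, 0 genes and 0 members were called at day 14. Whether the numbers pair arrays across days is not given; deviations from the day mean correlated with r 0.36 to 0.64 between arrays of the same number, which share their dyes, whereas the difference between arrays of the same dyes correlated with r −0.38 (arrays 1 and 2) and 0.02 (arrays 3 and 4), so the numbers were not taken as pairs.

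Turning arrays 3 and 4 reversed 16 members at day 14, where one of the values was called: Apcdd1 0.35, Axin1 0.71, Dkk4 −0.28, Dvl2 −0.34, Frzb −0.56, Fzd4 0.56, Fzd8 −0.43, Fzd9 0.39, Lef1 0.30, Lrp6 −0.46, Tcf7l2 −0.96, Wif1 0.66, Wnt10a 0.50, Wnt10b −0.42, Wnt4 −0.37 and Wnt9b −0.44. By construction these are the dye terms. Of the 137 member ratios over the 3 comparisons that were called under neither sign, 79 changed sign; with quantile scaling it was 20 of 156, and with median centring 6 of 156.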

Other observations

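Set against the adipocyte marker median of the same array, the 3 genes that fell at day 14 lay differently. Relative to it, in log2 units on day 14 arrays 1 to 4, Sfrp5 stood at −1.38, −1.79, −0.81 and −0.49. Apcdd1 stood at −0.68, −0.72, −1.19 and −0.91, whereas Fzd4 lay on both sides, at 0.14, 0.44, −0.39 and −0.57. On day 5 array 4 Sfrp5 was 1.13 above the median, while Apcdd1 (−0.27) and Fzd4 (−0.18) were slightly below it. Single adipocyte markers spread widely around their median. Their day 14 fitted ratios ran from −4.28 for Nnat to 0.18 for Fabp4, with Adipoq at −2.03. Against the endothelial median, Sfrp5 and Apcdd1 lay below it on each day 14 array. Fzd4 stood at −0.10, 0.41, −1.22 and −1.20 relative to that median. These differences were not tested.

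Wnt genes that lie next to each other in the mouse genome form 4 pairs among the members. At day 14 the pair Wnt3a and Wnt9a stood at 0.14 and −0.15, Wnt9b and Wnt3 at 0.18 and −0.09, Wnt10b and Wnt1 at 0.07 and 0.14, and Wnt6 and Wnt10a at −0.04 and −0.11; none of the 8 genes was called (limma).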
